A study of Mus musculus with 3 samples.

Results

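The genes described here encode the aminoacyl-tRNA synthetases of the mouse, measured in NIH3T3 cells, an established line of mouse embryonic fibroblasts. They were chosen by symbol alone: every listed gene whose symbol is a single letter followed by ars, with or without a closing 1 or 2, together with Eprs, Farsa and Farsb. This gave 37 of the 55573 genes listed. Of these, 20 encode cytosolic enzymes and 17, whose symbols end in 2, encode mitochondrial enzymes. The series holds 3 libraries of untreated NIH3T3 cells that share 1 condition, named here libraries 1, 2 and 3, so there was no group of samples to compare. RNA was sequenced with unique molecular identifiers (UMIs), short random tags that mark each original molecule, and expression was deposited as FPKM, fragment counts scaled to the length of the gene and to the total of the library. Nothing in the labels says that the libraries came from separate cultures, so every SD over libraries below measures only the spread between these libraries, which may be technical. The p-values rest on the same libraries and do not measure the size of that spread.

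An aminoacyl-tRNA synthetase joins an amino acid to its matching tRNA, and the charged tRNA then carries that amino acid to the ribosome. Mammalian cells hold a set of these enzymes in the cytosol for the proteins of nuclear genes, and a second set in mitochondria for the few proteins of the mitochondrial genome. Both sets are encoded in the nucleus. Glycyl- and lysyl-tRNA synthetase serve both compartments from a single gene each (Gars and Kars). Mitochondrial glutaminyl-tRNA is made by an amidotransferase, so Qars has no mitochondrial partner either. Eprs encodes a fused enzyme that charges both glutamate and proline, whereas mitochondria use Ears2 and Pars2 for these. Cytosolic phenylalanyl-tRNA synthetase has an alpha subunit (Farsa) and a beta subunit (Farsb), and its mitochondrial counterpart is the single protein of Fars2.

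The libraries held 13959723 to 14423209 counted fragments, a highest-to-lowest ratio of 1.03. All 8 fibroblast markers examined had at least 1 FPKM in every library, against 48.5% of protein-coding genes. Their means ran from 2.97 FPKM for S100a4 to 4377 FPKM for Fn1, which encodes fibronectin. The extraction text attached to these samples speaks of retina, whereas the cell line field says NIH3T3. None of 8 retina markers reached 1 FPKM in any library (highest value 0.620), nor did any of 4 epithelial (0.523) or 3 blood markers (0.0493).

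Several cytosolic synthetase genes are known targets of the amino acid response, in which ATF4 together with C/EBP factors binds elements with the core TGATGCAA. This motif was therefore searched on both strands of the promoters of RefSeq (GRCm38.p6), each spanning 250 bases before to 50 after the transcription start. A promoter was found for 27 members. The motif occurred in 4 of the 13 cytosolic genes with a promoter entry (30.8%) and in 0 of the 14 mitochondrial genes, which have 15 entries. Counted over entries, 0.895% of all 32851 promoters held it. The matches in 3 of these genes are shown as 30-base windows, 5′ to 3′ on the strand of the gene, with the motif or its opposite-strand form TTGCATCA in capitals.
Iars: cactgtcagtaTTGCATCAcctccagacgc
Tars: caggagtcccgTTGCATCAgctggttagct
Yars: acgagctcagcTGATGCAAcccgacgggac

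These windows lie at chr13:49682126-49682155 (+) for Iars, which encodes isoleucyl-tRNA synthetase, at chr15:11399655-11399684 (-) for Tars (threonyl) and at chr4:129189895-129189924 (+) for Yars (tyrosyl). The first motif base lies at -15 in Tars, before the start, and at +8 in Iars and +4 in Yars, within the transcript. These 3 genes were not the highest of their group: Yars averaged 298 FPKM, Tars 170 and Iars 143. No promoter entry was matched for Cars, Hars, Lars, Nars, Rars, Vars or Wars among the cytosolic genes or for Hars2 or Pars2 among the mitochondrial genes. A match is a run of letters and not a measured binding site.

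All 37 synthetase genes had at least 1 FPKM in every library, against 22.2% of all genes listed and 48.5% of the protein-coding genes. The median member had 73.0 FPKM and stood at percentile 85.9 among the 12905 genes with a mean of at least 1 FPKM, whose own median was 17.5 FPKM. A mean of at least 100 FPKM was reached by 15 members, 14 of them cytosolic, against 9.41% of those 12905 genes. Together the members took 0.849% ± 0.00812 (SD, n = 3) of all counted fragments.

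The cytosolic genes lay far above the mitochondrial ones, a comparison described here without a test. Their median was 181 FPKM in library 1, 179 in library 2 and 181 in library 3, whereas that of the mitochondrial genes was 10.7, 10.6 and 10.9 FPKM. The log2 difference of the medians was 4.07 ± 0.00687 (SD, n = 3), a 16.8-fold difference in level per length. The fold depended on the length and the summary used: it was 11.0 per longest isoform, 11.9 in undivided fragments, 9.37 per longest protein-coding isoform and 10.2 with means of log2 values in place of medians. No cytosolic gene lay below the mitochondrial median, and only Lars2 of the mitochondrial genes lay above the cytosolic median. The SD here is over libraries of the same cells and says nothing of the spread among genes, which was wide: 30.3 to 368 FPKM in the cytosolic group and 2.94 to 1189 FPKM in the mitochondrial group.

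**Figure D1:**
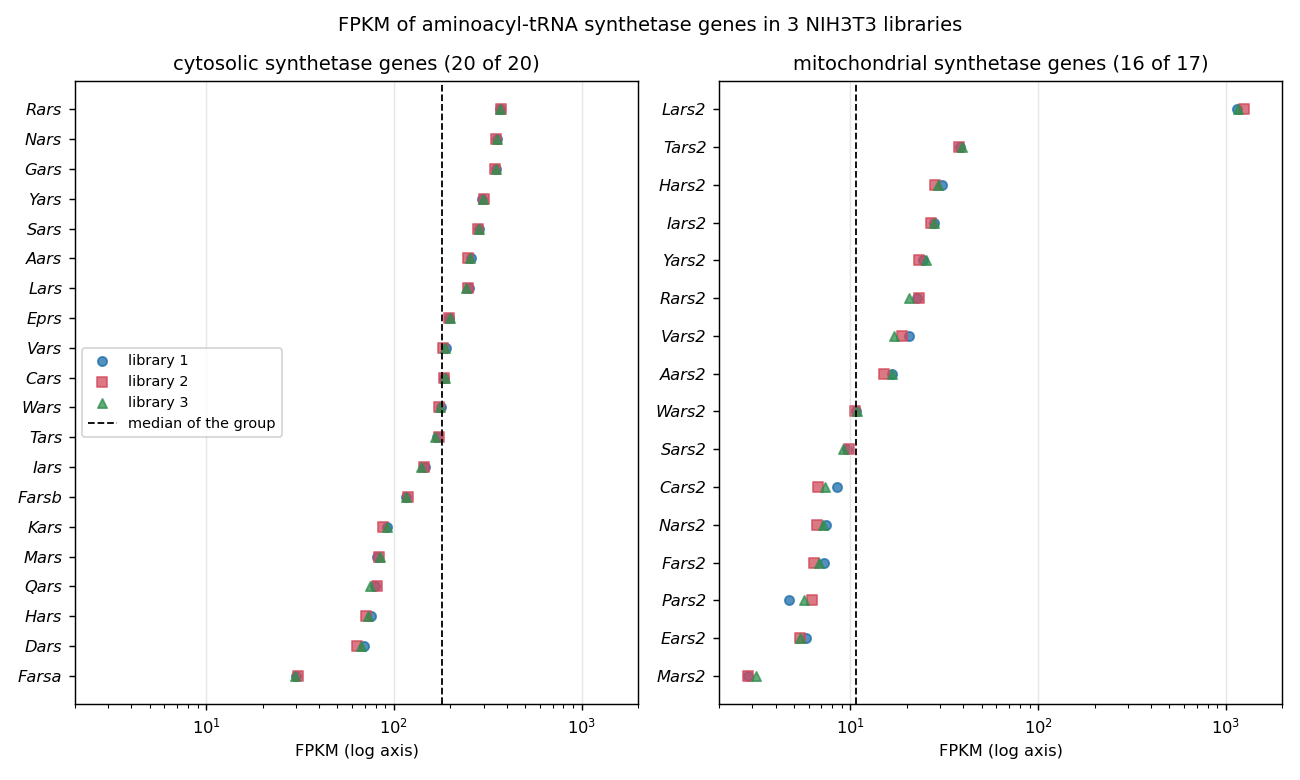
FPKM (log axis) of the 20 cytosolic (left) and 16 of the 17 mitochondrial (right) synthetase genes, with 1 point for each of the 3 libraries and a dashed line at the median of the whole group. The 3 points of most genes nearly coincide, the dashed lines lie at 180 and 10.7 FPKM, and Lars2 stands alone at 1151 to 1253 FPKM.

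Rars, Nars, Gars, Yars and Sars were the 5 highest cytosolic genes, all at or above percentile 97.5 of expressed genes. Rars (ENSMUSG00000018848, chr11:35808381-35834506 on GRCm38), which charges arginine and belongs to the multisynthetase complex, had 368.4, 369.6 and 366.7 FPKM in libraries 1 to 3. Nars, the asparaginyl enzyme, had 354, 349 and 354 FPKM. Gars, the glycyl enzyme of both compartments, had 350.0, 346 and 348 FPKM. The ranges of Nars and Gars overlapped over the libraries, and those of Rars and Nars did not. Yars, the tyrosyl enzyme, followed with 296, 301 and 298 FPKM. Sars, the seryl enzyme, had 285, 282 and 282 FPKM. The ranges of Gars, Yars and Sars did not overlap one another.

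Below them came Aars for alanine (253 ± 5.40 FPKM, mean ± SD), Lars for leucine (247 ± 4.56), Eprs (197, 197 and 199 FPKM in libraries 1 to 3, 198 ± 1.22), Vars for valine (187 ± 3.71), Cars for cysteine (185 ± 1.03), Wars for tryptophan (176 ± 1.85), Tars (170.1, 175 and 166 FPKM, 170 ± 4.18), Iars (143 ± 3.07) and Farsb (117 ± 2.15), each over n = 3 libraries. The ranges of Aars and Lars overlapped, as did those of Vars and Cars and those of Wars and Tars. In all, 6 of the 19 neighbouring pairs in the cytosolic order overlapped.

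The lower end of the cytosolic group held Kars, Mars, Qars, Hars, Dars and Farsa. Kars, the lysyl enzyme of both compartments, had 91.5, 87.0 and 91.4 FPKM. Mars, the methionyl enzyme, had 81.0, 82.8 and 83.9 FPKM, and its gene body overlaps Ddit3 on the opposite strand over 68 nt. Qars, the glutaminyl enzyme, had 79.0, 81.3 and 74.1 FPKM. The ranges of Mars and Qars overlapped, as did those of Qars and Hars. Hars, the histidyl enzyme, had 75.5, 70.6 and 72.9 FPKM. Dars, the aspartyl enzyme, had 69.5, 64.0 and 66.9 FPKM. Farsa was the lowest on the deposited scale, with 30.2, 30.9 and 29.6 FPKM, and did not overlap its neighbour. Gars, Kars and Qars, the 3 genes without a mitochondrial partner, thus lay at ranks 3, 15 and 17 of the cytosolic order by deposited FPKM.

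Farsa and Farsb encode the subunits of a single enzyme, yet Farsb was higher in every library, by 3.87-fold ± 0.0422 (SD, n = 3). The size of this difference depends on the gene length used. It was 4.08-fold per length of the longest isoform, 2.49-fold in fragments not divided by length and 2.23-fold per length of the longest protein-coding isoform. Farsb also shares 6.24% of its 75-nt words with Sgpp2, a gene that overlaps it on the opposite strand.

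Among the mitochondrial genes Lars2, the leucyl enzyme, stood apart. It had 1151 FPKM in library 1, 1253 in library 2 and 1163 in library 3, from 33315, 35080 and 33386 fragments. Its mean of 1189 ± 55.4 FPKM (SD, n = 3) ranked 43 among all genes and was 30.9-fold that of the next mitochondrial gene, Tars2, and 3.23-fold that of the highest cytosolic gene, Rars. Lars2 alone made 83.2% of the summed mitochondrial FPKM. Without it, the mitochondrial genes took 0.0431% of all fragments, against 0.567% for the cytosolic genes.

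The sequence of Lars2 was therefore compared with all other annotated transcripts. None of its 11292 distinct 75-nt words occurred in another gene, whereas 103 of its 11160 distinct 31-nt words (0.923%) did. Of these, 22 were shared with Gm15564, a gene annotated as antisense on another chromosome, and 26 with AA474408. None was shared with mt-Rnr1 or mt-Rnr2, the ribosomal RNAs of the mitochondrial genome. The longest run in common with Gm15564 had 52 nt and lay at chr9:123462048-123462099 (GRCm38, + strand), in the last of 21 exons of the 3894-nt coding isoform and 370 nt past the stop codon, hence in the 3′ UTR. It was present in 2 of the 9 annotated Lars2 isoforms. Its middle 30 bases, chr9:123462059-123462088, are shown because they lie in the gene with the highest member level, with capitals marking letters that both genes hold.
Lars2: GCGTTGGATTGTTCACCCACTAATAGGGAA

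Gm15564 itself had 41.8, 49.5 and 50.8 FPKM in libraries 1 to 3, while AA474408 averaged 0.260 FPKM. Both Lars2 and Gm15564 were lowest in library 1, Lars2 was highest in library 2 and Gm15564 in library 3. The order of 3 library values cannot show whether the genes shared fragments. How many Lars2 fragments came from this stretch was not tested, since the files give 1 value per gene. Sequences of nuclear ribosomal RNA were not compared here, so whether Lars2 shares words with them was not tested. The level, rank and share of Lars2 given above are those of all fragments counted for the gene.

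The other mitochondrial genes were all below 50 FPKM. Tars2, for threonine, had 38.4, 38.1 and 39.1 FPKM, and was the only one besides Lars2 whose mean lay above that of the lowest cytosolic gene, Farsa. Hars2, for histidine, had 30.7, 28.3 and 29.2 FPKM, which overlaps the range of Farsa. Iars2, for isoleucine, had 27.8, 26.9 and 27.9 FPKM, and 21.6% of its 75-nt words are also in Rab3gap2, an overlapping gene on the opposite strand with 29.0 FPKM. Neither Tars2 and Hars2 nor Hars2 and Iars2 overlapped in their ranges. Yars2, for tyrosine, had 24.3, 23.1 and 25.4 FPKM. Rars2 (22.2 ± 1.49 FPKM), Vars2 (18.7 ± 1.69), Aars2 (16.2 ± 0.901) and Wars2 (10.7 ± 0.116) completed the upper part (mean ± SD, n = 3).

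Under 10 FPKM lay 8 mitochondrial genes, among them Sars2 (9.52 ± 0.384 FPKM), Cars2 (7.53 ± 0.906), Nars2 (7.45, 6.63 and 7.16 FPKM, 7.08 ± 0.418), Fars2, Pars2, Ears2 and Mars2. Fars2, the phenylalanyl enzyme, had 7.22, 6.44 and 6.78 FPKM. The order among Cars2, Nars2 and Fars2 is not resolved, since neighbours overlapped over the libraries, and the same holds for Pars2 and Ears2. Pars2, the prolyl enzyme, had 4.74, 6.28 and 5.65 FPKM. Ears2, the glutamyl enzyme, had 5.81, 5.41 and 5.42 FPKM. Mars2 (ENSMUSG00000046994, chr1:55237177-55248470 on GRCm38), the methionyl enzyme, was the lowest with 2.86, 2.84 and 3.13 FPKM and overlapped none of the others. It has a single annotated isoform of 11294 nt, so its 448 to 506 fragments per library were divided by a far greater length than those of any other member.

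Each cytosolic gene was then set beside the mitochondrial gene for the same amino acid within each library, which gave 18 pairs. Eprs was set beside both Ears2 and Pars2, and both Farsa and Farsb beside Fars2, so these pairs share genes. The cytosolic gene was higher in every library in 17 pairs, and in each of these the exact (Clopper-Pearson) 95% binomial interval, which covers counting error only, lay above a ratio of 1 in every library. The median ratio was 16.0, and 13 pairs exceeded 10. In an exact permutation test that flips the signs of the library log2 ratios (two-sided), every pair had p = 0.25 (0.25 after Benjamini-Hochberg adjustment over the pairs), the smallest p that 3 libraries allow.

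**Figure D2:**
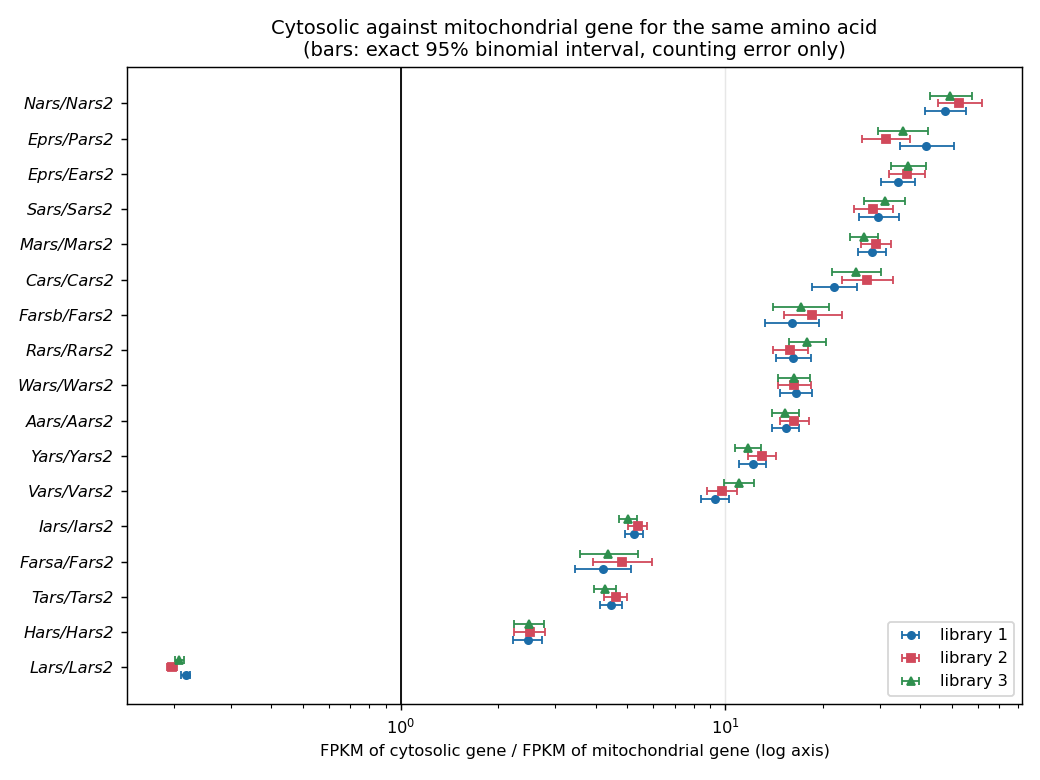
FPKM of the cytosolic gene divided by FPKM of the mitochondrial gene (log axis) for 17 of the 18 pairs, with 1 point for each library and bars for the exact 95% binomial interval of counting error. All points lie to the right of a ratio of 1 except those of Lars/Lars2, and the highest ratios are those of Nars/Nars2.

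On the deposited FPKM scale the widest pair was asparagine, where Nars was 47.5, 52.7 and 49.4 times Nars2 in libraries 1 to 3, a mean of 49.9 ± 2.60 (SD, n = 3). Eprs was 41.7, 31.3 and 35.2 times Pars2. Eprs was also 34.0, 36.3 and 36.7 times Ears2. The proline pair varied the most of all pairs between libraries, with an SD of 0.21 on the log2 scale, and the order of these 2 pairs was not the same in every library. Serine (29.8 ± 1.21), methionine (28.1 ± 1.19) and cysteine (24.8 ± 2.94) followed, again as mean ratios with the SD over libraries.

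Ratios between 10 and 20 were found for Farsb/Fars2 (17.2 ± 1.27), arginine (16.7 ± 1.10), tryptophan (16.4 ± 0.129), alanine (15.7 ± 0.560), tyrosine (12.3 ± 0.649) and valine (10.03 ± 0.888). The valine ratio cannot be told from 10, since its library values ran from 9.31 to 11.0. Isoleucine (5.21 ± 0.189) and Farsa/Fars2 (4.45 ± 0.318) lay lower. Tars was 4.43, 4.59 and 4.25 times Tars2. The narrowest pair with the cytosolic gene higher was histidine, with 2.46, 2.50 and 2.49 (mean 2.48 ± 0.0192). Hars and Hars2 lie on opposite strands with gene bodies that overlap by 198 nt, and share 121 of their 75-nt words, 4.86% of those of Hars and 2.78% of those of Hars2. Whether counting used strand is not stated in the sources used here, so fragments of this stretch cannot be assigned between them.

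Leucine was the only pair with the mitochondrial gene higher. Lars2 was 4.59 times Lars in library 1 (95% interval 4.44 to 4.73), 5.06 times in library 2 (4.90 to 5.23) and 4.81 times in library 3 (4.65 to 4.97). The log2 ratio of Lars to Lars2 was -2.27 ± 0.07 (SD, n = 3), with every library on the same side. These intervals cover counting error only. The Lars2 values hold every fragment counted for the gene, and how many came from the stretch shared with Gm15564 was not tested. Nor was any sharing with nuclear ribosomal RNA tested, so the ratio may not be that of the synthetase mRNAs. Lars itself ranked 7 of 20 among the cytosolic genes, at 251, 247 and 242 FPKM.

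FPKM here was divided by the mean length of the annotated isoforms of a gene, which for genes with many short isoforms is far below the length of the full mRNA. The longest isoform was 2.05 times the mean length for the median member, against 1.72 for the median gene with at least 1 FPKM. Ratios were therefore recomputed with other lengths. In fragments not divided by length, per longest isoform and per longest protein-coding isoform, the cytosolic gene remained higher in the same count of 17 pairs each time. The sizes and the order moved. Eprs/Pars2 rose from 36.1 to 65.9 in undivided fragments and was then the widest pair, ahead of Nars/Nars2 at 40.7. Mars/Mars2 went from 28.1 to 4.41 in undivided fragments, Farsa/Fars2 from 4.45 to 8.70 per longest coding isoform, and Eprs/Ears2 from 35.7 to 12.8 per longest coding isoform. Lars/Lars2 moved further from 1, from 0.208 to 0.121 per longest isoform.

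**Figure D3:**
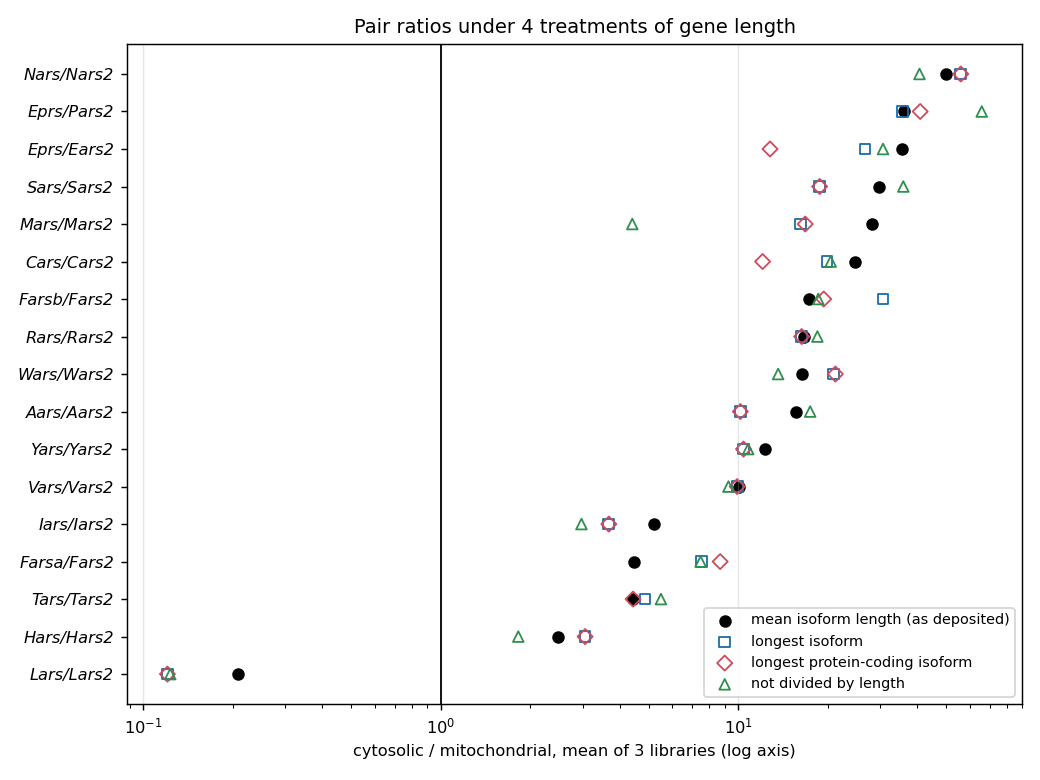
Mean ratio over 3 libraries of the cytosolic to the mitochondrial gene (log axis) for 17 of the 18 pairs, with 4 symbols for the mean isoform length used in the deposited FPKM, the longest isoform, the longest protein-coding isoform and no division by length. The 4 symbols of Rars/Rars2 and Vars/Vars2 lie close together, those of Mars/Mars2 spread from 4.41 to 28.1, and no symbol crosses a ratio of 1.

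A group of cytosolic synthetases sits in the multisynthetase complex, an assembly held together by the scaffold proteins of Aimp1, Aimp2 and Eef1e1. The 8 genes of this complex (Eprs, Iars, Lars, Qars, Mars, Kars, Rars and Dars) had a median of 117 FPKM, and the 12 free cytosolic genes 186 FPKM. The log2 difference of the medians was -0.71 ± 0.01 (SD over 3 libraries), and it was negative in each library. Its size depended on the length used: it was -0.46 per longest isoform, -0.63 in undivided fragments and -0.40 per longest protein-coding isoform. The groups overlapped widely: 4 of 8 complex genes and 10 of 12 free genes reached 100 FPKM. On the deposited scale Rars of the complex was the highest cytosolic gene, and Farsa of the free genes was the lowest. The scaffold gene Aimp1 had 105, 96.0 and 102 FPKM, somewhat below the complex median, whereas Aimp2 (28.5 ± 1.10 FPKM) and Eef1e1 (30.9 ± 1.33) were at the level of Farsa.

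Synthetases fall into class I and class II, which have unrelated catalytic folds. Among the cytosolic genes, 9 of class I had a median of 185 FPKM and 10 of class II 144 FPKM, a log2 difference of 0.38 ± 0.04 (SD, n = 3). This direction depended on the length used: it became -0.13 per longest isoform and -0.14 per longest protein-coding isoform. Among the mitochondrial genes, 9 of class I had a median of 18.7 FPKM and 8 of class II 8.30 FPKM, a log2 difference of 1.18 ± 0.09, which was 0.78 without Lars2 and 0.28 per longest isoform.

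Other genes of tRNA charging were examined as a list of 15, of which 13 had at least 1 FPKM in every library. Tarsl2, which encodes a second cytosolic threonyl enzyme, had 5.54 ± 0.0624 FPKM (SD, n = 3), far below the 170 FPKM of Tars. The subunits of the mitochondrial amidotransferase that replaces a mitochondrial Qars had 6.33 ± 0.624 (Gatb), 16.3 ± 0.643 (Gatc) and 8.39 ± 0.457 FPKM (Qrsl1), within the range of the mitochondrial synthetase genes. Mtfmt, which formylates the mitochondrial initiator methionyl-tRNA, had 7.80 ± 0.584 FPKM. Trnt1, which adds the CCA end to tRNAs, had 45.2 ± 1.05 FPKM. The selenocysteine genes Pstk and Sepsecs had 17.1 ± 0.401 and 14.2 ± 0.262 FPKM, and the D-aminoacyl-tRNA deacylase genes Dtd1 and Dtd2 18.4 ± 0.949 and 13.2 ± 0.728 FPKM. Aarsd1 (0.767 ± 0.271 FPKM) and Prorsd1 (0.571 ± 0.171), relatives of synthetase editing domains, did not reach 1 FPKM in every library.

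The members varied little between libraries. Their median coefficient of variation (CV) was 2.45%, and the median CV expected from counting error was 2.84%. The expected CV is the root of the mean counting variance. A median CV over 3 libraries can therefore lie below it where counting error alone acts. Over all genes with at least 1 FPKM the median CV was 4.35% and counting error 4.77%. The median ratio of CV to expected CV was 0.945 for the members and 0.894 for all these genes. Cytosolic genes had a median CV of 1.84% and mitochondrial genes 5.51%, and the counting error for these was 1.60% and 5.51%. The median SD of log2(FPKM + 1) was 0.0352 over the members and 0.0571 over all genes with a mean of at least 1 FPKM. Among the largest SDs of members were those of Pars2 (0.174) and Cars2 (0.152), which rest on 109 to 166 fragments per library. Cars2 had 8.51, 6.73 and 7.34 FPKM, and was highest in library 1, whereas Pars2 was lowest there.

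A CV of at least 2 times counting error was seen in 2 members, among them Lars2 (8.58 times), against 5.21% of 12150 genes with recovered fragments. Lars2 had a CV of 4.66%, where its depth would give 0.543%. It was the only member with a mean of at least 10000 fragments. Among the 131 genes of that depth, 13.7% had a CV of at least 5 times counting error.

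**Figure D4:**
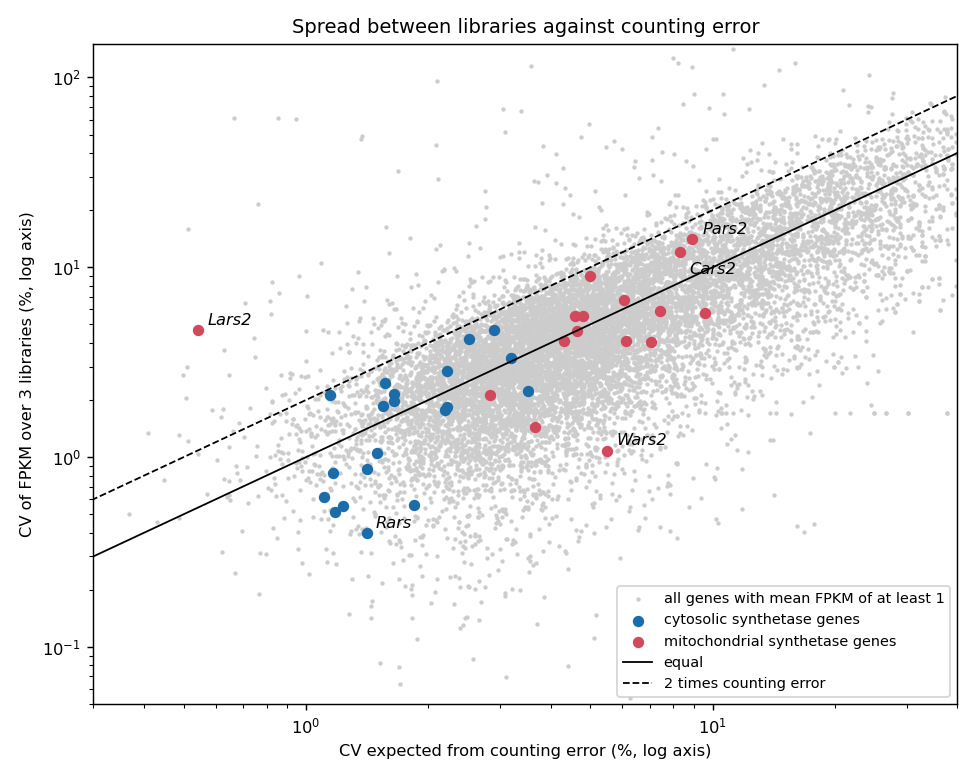
CV of FPKM over 3 libraries against the CV expected from counting error (both in %, log axes), with grey points for genes with a mean of at least 1 FPKM and recovered fragments, blue for cytosolic and red for 16 of the 17 mitochondrial synthetase genes, a solid line for equality and a dashed line at 2 times counting error. Lars2 lies far above the dashed line at 4.66% against 0.543%, and all other members shown lie below it.

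Most members shared no long sequence with another gene. Of the 37, 22 had no 75-nt word in common with any other annotated gene, and 6 shared at least 5% of their words, among them Iars2, Aars, Fars2, Farsb and Vars2. Aars shared 13.1% with Exosc6, a gene within its own span that is listed at 0 in every library. The genes overlap on the same strand over 1326 nt. How fragments of this stretch were counted was not tested, so the 0 does not show that Exosc6 is silent. Fars2 shared 7.90%, mostly with Nrn1, and Vars2 5.42% with Gm20483, both on the opposite strand. In all, 20 members are overlapped by another annotated gene. No share over all genes was computed for shared words or overlaps, so these counts have no background.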

How the data were processed

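UMI-RNAseq was measured in 3 NIH3T3 libraries, which form 1 group by their cell line label. Per the submitters' processing notes, UMIs were handled with UMI-tools 1.0.0, reads were aligned with HISAT2 2.0.4 and counted per gene with HTSeq 0.6.1, and DESeq 1.10.1 is also named. The genome build and the strand setting of the counting are not given in the sources used here. The authors divided the counts by gene length and library total, and deposited FPKM values without pooling the libraries. All columns of per-sample values were used.

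Because FPKM is a scaled value, tests for counts were not applied. Fragments were recovered by multiplying FPKM by the mean isoform length of GENCODE M21 (GRCm38) and the library total. Of 26193 genes above 0, 25320 (96.7%) came out whole in every library within 0.02, as did all 37 members. The steps were first tested on simulated fragments. Levels were compared between genes per length, and as an alternative in fragments not divided by length. Shares of all counted fragments were also not divided by length. Pairs were compared within a library by log2(FPKM) without a pseudocount, with an exact sign-flip permutation test and exact 95% binomial intervals. Groups of genes are described by medians without a test, since genes are not replicates. SDs of single genes use log2(FPKM + 1).

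Python 3.11.15, numpy 2.4.6, pandas 2.3.3, scipy 1.17.1 and matplotlib 3.10.9 were used. The members, the gene lists and the alternatives were chosen with earlier results of these data known. Values per library are given for the 5 highest and 5 lowest genes of each group, both genes of the 3 widest and 3 narrowest pairs, the 3 members with the largest SD, and Gars, Kars and Qars. Of these, 1 member and 1 promoter window are not reported here, though all counts and medians include them. Further members shown per library lie next to these. Promoters were matched through Entrez identifiers. Protein sequences were not analysed here. Alternatives covered the length, the pseudocount, the scaling, the genes of each group and each library left out. Those on the longest protein-coding isoform, on 31-nt words and on leaving out Lars2 were added after seeing the data.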

Additional observations from a re-analysis of the deposited data

How the results depend on the processing

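The count of 17 pairs with the cytosolic gene higher and the count of 37 members with at least 1 FPKM in every library held under every alternative run, except that 29 members reached 10 FPKM. The log2 difference between cytosolic and mitochondrial medians (4.07) was 3.46 per longest isoform, 3.57 in undivided fragments, 3.23 per longest protein-coding isoform, 3.35 with means in place of medians, 3.95 and 4.06 with pseudocounts of 1 and 0.1, 4.10 without Gars, Kars and Qars, and 4.16 without Lars2. Leaving out 1 library at a time gave 4.07 to 4.07. The difference between complex and free genes was -0.46, -0.63 and -0.40 under the same 3 lengths, and -0.72 to -0.70 with a library left out. That between the classes reversed among cytosolic genes, to -0.13 per longest isoform and -0.14 per longest protein-coding isoform (0.36 to 0.41 with a library left out). Among mitochondrial genes it was 0.28, 0.99 and 0.76 under the 3 lengths, 0.78 without Lars2 and 1.15 to 1.23 with a library left out. The median member had 105.8 on the TPM scale, and 71.8 to 74.2 FPKM with a library left out. Its percentile was 96.7 among all listed genes and 92.1 among protein-coding genes. Of 381 alternative values, 55 moved and 2 reversed. Of those that moved, 37 were levels of single members on the TPM scale. The 144 values for single pairs kept their direction and were counted as unmoved, though many changed in size with the length used. These counts are therefore no measure of how far values shifted. No paired analysis was possible because all 3 libraries share 1 condition, so there were no groups of samples to pair by replicate number. Depth limits the lowest members, such as Pars2 and Fars2, whose 101 to 140 fragments per library give counting errors of 8.90% and 9.59%.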
